A study of Mus musculus with 19 samples.

Results

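Natural killer (NK) cells are lymphocytes of the innate immune system that kill infected or transformed cells and secrete cytokines. Splenic NK cells cultured with interleukin-2 (IL-2) and a low dose of a JAK1 inhibitor were compared with NK cells cultured with IL-2 alone. The samples were chosen by inhibitor and dose in their titles: 1 sample at 0.0625 µM and 2 at 0.25 µM, pooled as the low-dose group, against 4 IL-2 samples, which makes 7 of the 19 samples of the series. The 12 other samples comprise 3 without IL-2 (untreated), 3 with a higher dose of the same inhibitor (2 at 1 µM, 1 at 4 µM), 2 with a JAK3 inhibitor at 0.25 µM, and 4 with that inhibitor at 1 and 4 µM, which entered the fit only for its estimate of the spread. Each group held cells of 6-week-old male C57BL/6 mice, enriched from spleen by negative selection, with NK1.1 given as the marker. Every IL-2 and inhibitor sample received 250 U/ml of IL-2, for 8 h by the series' description, and the title of 1 untreated sample (replicate 2) gives no time. Both inhibitors are known only by code names. Nothing in the labels tells if the replicates were different animals or culture wells, and p-values therefore cover only how far these samples vary, in part perhaps technically.

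IL-2 binds a receptor whose beta chain carries the kinase JAK1 and whose common gamma chain carries JAK3. The kinases activate STAT5, which switches on feedback inhibitors such as Cish and Socs1, survival and growth genes such as Pim kinases and Myc, and the cytotoxic program of NK cells. JAK1 also serves the receptors of type I interferons (with TYK2) and of interferon-gamma (with JAK2); JAK3 does not. Interferon-stimulated genes carry in their promoters an interferon-stimulated response element (ISRE) or a gamma-activated sequence (GAS), which STAT5 dimers can also bind.

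The largest falls lay among interferon-stimulated genes, so the upstream sequences of the 3 genes of the type I list with the smallest p that had an entry are shown (RefSeq, GRCm38.p6; 250 bases before the listed start, 5′ to 3′, plus strand), with matches to the ISRE core (GAAA, any 2 bases, GAAA, on either strand) or the GAS core TTCNNNGAA (its own reverse complement) in capitals. The 250 bases lie at chr19:34640639-34640888 for Ifit1, chr11:82951852-82952101 for Slfn5 and chr19:34550444-34550693 for the first of 2 listed starts of Ifit2.
Ifit1: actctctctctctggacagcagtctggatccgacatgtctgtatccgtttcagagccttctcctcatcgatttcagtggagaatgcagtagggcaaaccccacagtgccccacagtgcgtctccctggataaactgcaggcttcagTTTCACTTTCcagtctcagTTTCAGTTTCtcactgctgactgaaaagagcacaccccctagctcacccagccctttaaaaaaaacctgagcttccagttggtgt
Slfn5: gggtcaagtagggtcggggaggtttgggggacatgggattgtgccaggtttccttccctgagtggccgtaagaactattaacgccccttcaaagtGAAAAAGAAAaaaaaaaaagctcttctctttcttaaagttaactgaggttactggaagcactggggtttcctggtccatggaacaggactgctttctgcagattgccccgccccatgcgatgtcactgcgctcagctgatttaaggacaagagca
Ifit2: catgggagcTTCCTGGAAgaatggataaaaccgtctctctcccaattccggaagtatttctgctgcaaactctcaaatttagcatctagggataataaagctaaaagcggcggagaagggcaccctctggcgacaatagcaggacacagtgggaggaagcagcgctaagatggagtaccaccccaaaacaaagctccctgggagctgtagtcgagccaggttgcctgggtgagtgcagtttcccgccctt
Ifit1 held 2 ISRE cores, beginning 104 and 85 bases before the start, Slfn5 held 1 that begins 155 bases before it, and Ifit2 held 1 GAS core 241 bases before it; the window of the second Ifit2 start held neither motif. Over windows of 300 bases (250 before to 50 after the start), the ISRE core was in 16 of 37 windows of the type I list (43.2%), in 7 of 20 of the interferon-gamma list (35.0%), in 1 of 38 of the IL-2/STAT5 list (2.63%) and in 0 of 41 of the chaperone and translation list, against 3.44% of all 32851 windows. The GAS core was in 6 of 37 windows of the type I list (16.2%), 6 of 20 windows of the interferon-gamma list (30.0%), 8 of 38 of the IL-2/STAT5 list (21.1%) and 3 of 41 of the chaperone and translation list (7.32%), against 8.3% of all windows. The 2 motifs share no bases in the windows shown. A match describes letters in the window and is not a binding site.

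The deposited intensities fall on 2 scales, with log2 medians of 7.49 to 7.59 in 7 samples and 5.70 to 5.90 in 12. The high scale holds IL-2 replicates 1 and 2 and 0.25 µM replicate 1, and the low scale IL-2 replicates 3 and 4, the 0.0625 µM sample and 0.25 µM replicate 2. Every fit that held samples of both scales therefore had a term for the scale, and values per sample are log2 intensities with that term taken off, written in replicate order. They can be compared between samples for 1 gene and not between genes, since each probe set has its own brightness. Correlations within a group were 0.963 to 0.995 for IL-2 and 0.960 to 0.987 for the low doses. A log2 change of 1 is a 2-fold change, and a gene is called changed at an adjusted p (Benjamini-Hochberg over 19752 genes, limma) under 0.05. Of the 10 NK markers, none was at 0, and their summed intensity was 8830 to 11300 with IL-2, 7740 to 8850 at the low doses and 3050 to 3780 in untreated cells. The 16 macrophage and monocyte markers, also none at 0, summed to 2090 to 2840 with IL-2, 3470 to 4980 at the low doses and 7970 to 9140 in untreated cells. A summed level weights each marker by its brightness, so bright genes such as Lyz2 count most in it, here and below. It is compared between samples only and does not show that all members moved alike. In such bulk samples, fewer cells of a type and less RNA per cell cannot be told apart.

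Low-dose JAK1 inhibitor changed 520 of 19752 genes against IL-2 (2.63%): 382 were lower (1.93%) and 138 higher (0.699%), among them 78 at least 2-fold lower and 17 at least 2-fold higher. The median change over all genes was 0.07. The 8 largest falls were 4 genes of the type I interferon-stimulated list (Slfn5, Ifit3, Usp18 and Ifit2), their relative Ifit3b, the interferon-induced GTPase Iigp1, the chemokine Cxcl10 and the translation factor Eif5a. The 8 largest rises, apart from a small RNA and a predicted gene, were the myeloid lectin genes Clec4a3, Clec4a1, Clec4a2, Cd209a and Cd209d, the NK and T cell surface protein Cd7, the endosomal receptor Tlr8 and the peptidase Dpep2; each kept its call with any 1 sample left out except Tlr8 (adjusted p = 0.0532 without 0.25 µM replicate 1). With the values quantile-normalized, 603 genes were higher and 698 lower, and with each sample centred on its median, 79 were higher and 471 lower. With the replicate number as a block, 86 genes were called, 62 higher and 24 lower. Leaving out 1 sample gave 92 calls (without 0.25 µM replicate 1), 119 (without 0.25 µM replicate 2), 166, 191 and 253 (IL-2 replicates 4, 3 and 2 each dropped) and 961 (IL-2 replicate 1 dropped), and within the low scale alone 24. All 520 genes kept their direction in each of these, which use the same samples or a part of them.

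**Figure D1:**
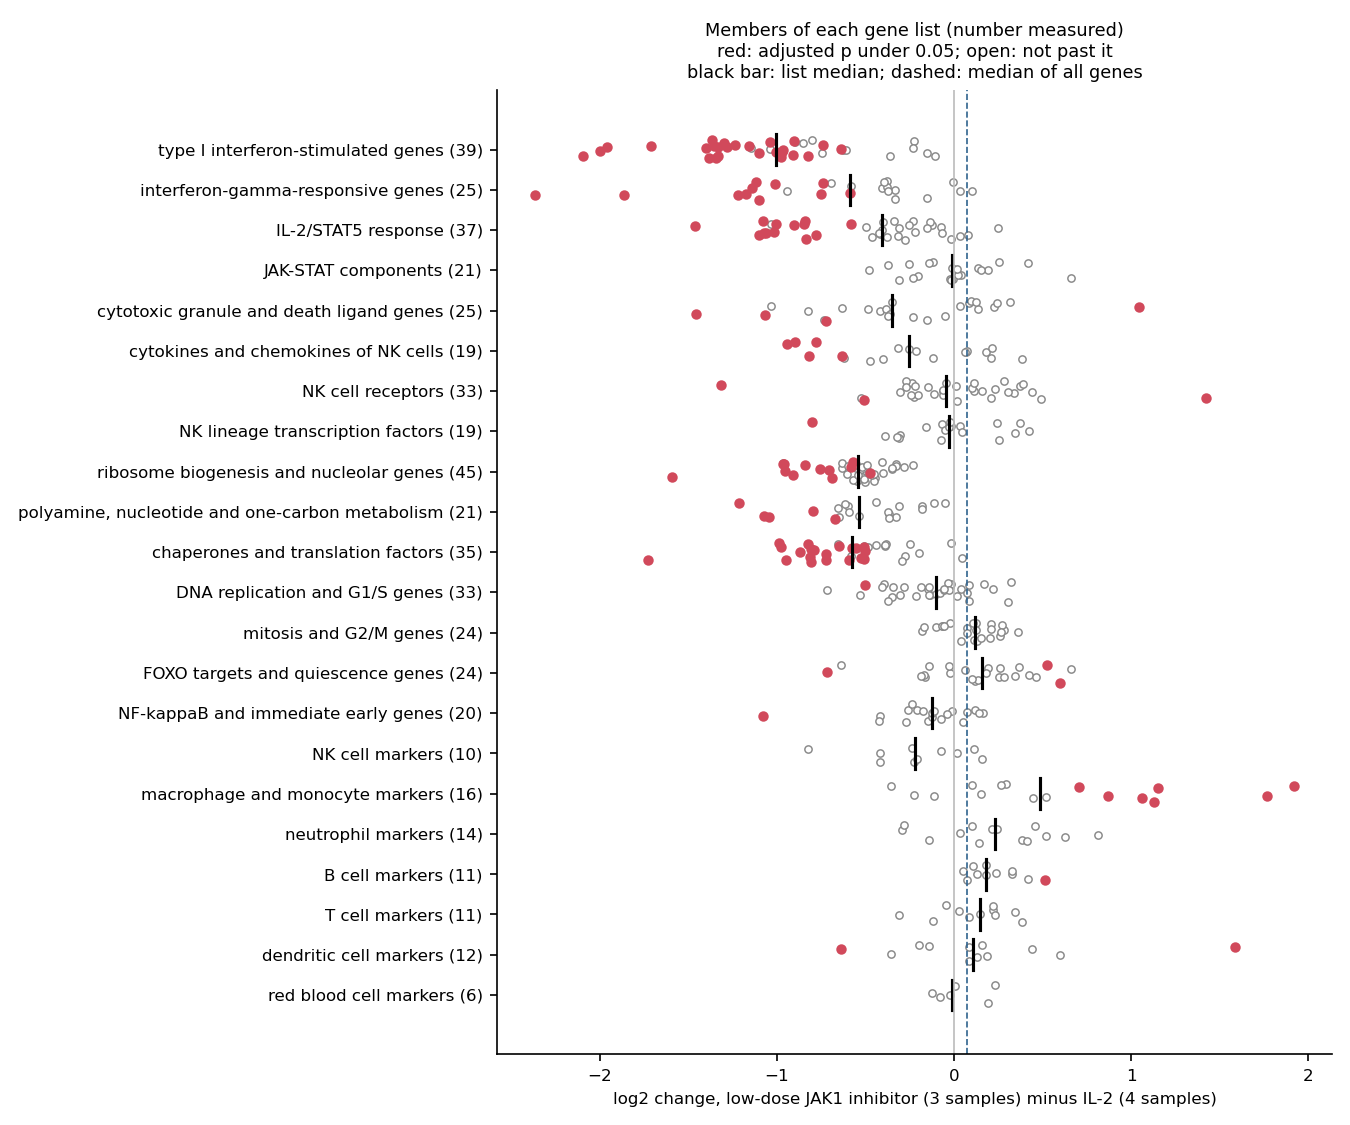
Log2 change of every measured member of 15 response lists and 7 marker lists, low-dose JAK1 inhibitor (3 samples) minus IL-2 (4 samples), with called members in red, list medians as black bars and the median of all genes dashed. Members of the type I interferon list lie at or to the left of -0.11, members of the chaperone and translation list centre on -0.58, and JAK-STAT components and mitosis genes lie on both sides of 0.

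Type I interferon-stimulated genes were lower as a group. Of 39 measured, 26 fell and none rose (66.7% lower, against 1.93% of all genes), all 39 values were below 0, and the median change was -1.0. By role, 11 of 15 antiviral effectors, 5 of 7 genes of the ISG15 system, 2 of 5 nucleic acid sensors and 2 of 3 transcription factors fell. In 30 of the 39 every low-dose sample was below every IL-2 sample, against 8.58% of all genes. Members of this and every other list were chosen with earlier results of these data known. Shares of called members are therefore not independent of these data.

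Slfn5, a Schlafen family gene, measured 7.93, 8.15, 8.96 and 8.40 with IL-2, 7.19 at 0.0625 µM and 6.04 and 5.56 at 0.25 µM, and fell by 2.09 (SE 0.35, adjusted p = 0.00262). Ifit3, of the family that binds viral RNA, measured 9.32, 9.18, 10.15 and 9.27 with IL-2, then 8.46, 7.58 and 6.41, and fell by 2.00 (SE 0.36, adjusted p = 0.00469). The groups did not overlap for either gene, and the 0.0625 µM sample lay between the IL-2 and the 0.25 µM samples. Usp18, the protease that removes ISG15 and restrains the type I receptor, measured 9.27, 9.29, 10.15 and 9.41 with IL-2 and 8.37, 7.49 and 6.84 at the low doses (change -1.96, SE 0.34, adjusted p = 0.00301). Ifit2 measured 7.39, 7.63, 8.45 and 7.89, then 6.49, 6.08 and 5.82 (change -1.71, SE 0.25, adjusted p = 0.00084). Ifit1, whose promoter with 2 ISRE cores is shown, measured 7.96, 7.82, 8.78 and 7.87, then 7.27, 6.85 and 5.99 (change -1.40, SE 0.25, adjusted p = 0.00372). In each of these genes 0.25 µM replicate 2 was the lowest sample and IL-2 replicate 3 the highest. Oasl2, of the oligoadenylate synthetase family, did not pass the test: it measured 9.59 to 10.30 with IL-2 and 9.75, 8.75 and 8.62 at the low doses (adjusted p = 0.118).

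With the replicate block, 5 members of the type I list were called, and Ifit2 and Ifit3b were not (adjusted p = 0.0695 and 0.073); Slfn5, Ifit1, Ifit3 and Usp18 still were. The count was 6 without 0.25 µM replicate 2, 7 without 0.25 µM replicate 1, 11 and 13 without IL-2 replicates 3 and 4, 17 with the 2 doses weighted equally, and 2 within the low scale, and the 5 called genes with values given here stayed called with any 1 sample left out. Within the scales, the list's median difference from IL-2 of the same scale was -0.70 for 0.0625 µM, -0.92 for 0.25 µM replicate 1 and -1.59 for 0.25 µM replicate 2.

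Interferon-gamma-responsive genes were also lower as a group. Of 25 measured, 11 fell and none rose (44.0% lower, against 1.93% of all genes, median -0.59). Among them were 4 of 6 GTPases, 2 of 3 chemokines, 1 of 4 transcription factors and 1 of 8 antigen presentation genes. Iigp1, a GTPase that attacks vacuoles of intracellular parasites, had the largest fall of all genes. It measured 7.26, 7.97, 7.49 and 7.31 with IL-2, 5.57 at 0.0625 µM and 5.12 and 4.73 at 0.25 µM, against 3.93, 4.31 and 4.43 in untreated cells (change -2.36, SE 0.18, adjusted p = 3.65e-07). The low-dose samples thus stood nearer to the untreated than to the IL-2 samples. Cxcl10, a chemokine that draws activated T and NK cells, measured 9.67, 9.64, 10.19 and 9.47 with IL-2, then 8.49, 8.20 and 6.95 (change -1.86, SE 0.29, adjusted p = 0.00141). Cxcl9, which uses the same receptor, measured 10.51, 10.40, 10.97 and 10.72, then 10.14, 9.58 and 8.71 (change -1.18, SE 0.26, adjusted p = 0.0166), while untreated cells measured 5.76 to 6.35. Cd274, which encodes the inhibitory ligand PD-L1, measured 9.08 to 9.39 with IL-2 and 8.36, 8.12 and 7.74 at the low doses, next to 7.67 to 7.76 untreated (change -1.12, SE 0.15, adjusted p = 0.000367). These 4 genes were called with the replicate block, which called 5 of the list. The count was 4 without either 0.25 µM sample, 6 without IL-2 replicate 3 or 4 and 7 with the doses weighted equally, and the call of Cxcl9 ended without 0.25 µM replicate 1 or 2 (adjusted p = 0.085 and 0.144) and without IL-2 replicate 3 or 4 (0.0934 and 0.0734).

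Of 37 IL-2/STAT5 response genes, 13 fell and none rose (35.1% lower, against 1.93% of all genes, median -0.41). Most of those not called were also lower, 34 of 37 values being below 0. Pim2, a kinase that promotes survival and growth, measured 9.67, 10.22, 10.05 and 10.10 with IL-2, then 8.74, 8.48 and 8.43 (change -1.46, SE 0.18, adjusted p = 0.000177). Socs1, a feedback inhibitor of JAK kinases, measured 9.19, 9.30, 9.15 and 9.38, then 8.5, 7.92 and 8.05 (change -1.10, SE 0.15, adjusted p = 0.000401). Cish, a STAT5 target that damps IL-2 signalling, measured 7.57, 7.83, 8.08 and 7.82, then 7.19, 6.90 and 6.67 (change -0.90, SE 0.15, adjusted p = 0.00204). For these 3 genes every low-dose sample lay between the IL-2 and the untreated samples, whose Socs1 values were 5.98 to 6.42. Il2ra, the alpha chain of the receptor, fell by 1.06 (adjusted p = 0.00726), Pim1 by 1.07 and Myc, a growth-promoting transcription factor, by 0.85. Pim1 measured 8.47, 8.31 and 8.49 at the low doses, within the 8.12 to 8.80 of untreated cells, whereas Myc measured 9.07, 8.62 and 8.89, above the 7.05 to 7.81 of untreated cells. Bcl2, the survival gene, measured 10.55 to 10.71 with IL-2 and 10.71, 10.19 and 10.34 at the low doses, and Socs2 6.97 to 7.42 and 7.17, 7.20 and 7.09; neither was called (adjusted p = 0.512 and 0.682).

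The replicate block left 2 calls in this list and ended those of Cish, Il2ra, Pim1 and Myc (adjusted p = 0.162, 0.0571, 0.18 and 0.33). Without 0.25 µM replicate 1 there were 4 calls, and those of Il2ra, Pim1 and Myc ended (0.0672, 0.0564 and 0.204); without 0.25 µM replicate 2, those of Il2ra and Myc (both 0.0809); and Myc was also not called without IL-2 replicate 2, 3 or 4 (0.0546, 0.0828 and 0.0757). The pathway itself gave no call: of 21 JAK-STAT components (kinases, STATs, receptor chains and inhibitors), none passed the test, 3 being lower and 2 higher at an unadjusted p under 0.05, against 1679 lower and 1605 higher of all 19752 genes. Jak1 measured 10.24 to 10.41 with IL-2 and 10.29, 10.44 and 10.69 at the low doses, and Il2rb, the beta chain, differed by -0.42 (adjusted p = 0.188).

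**Figure D2:**
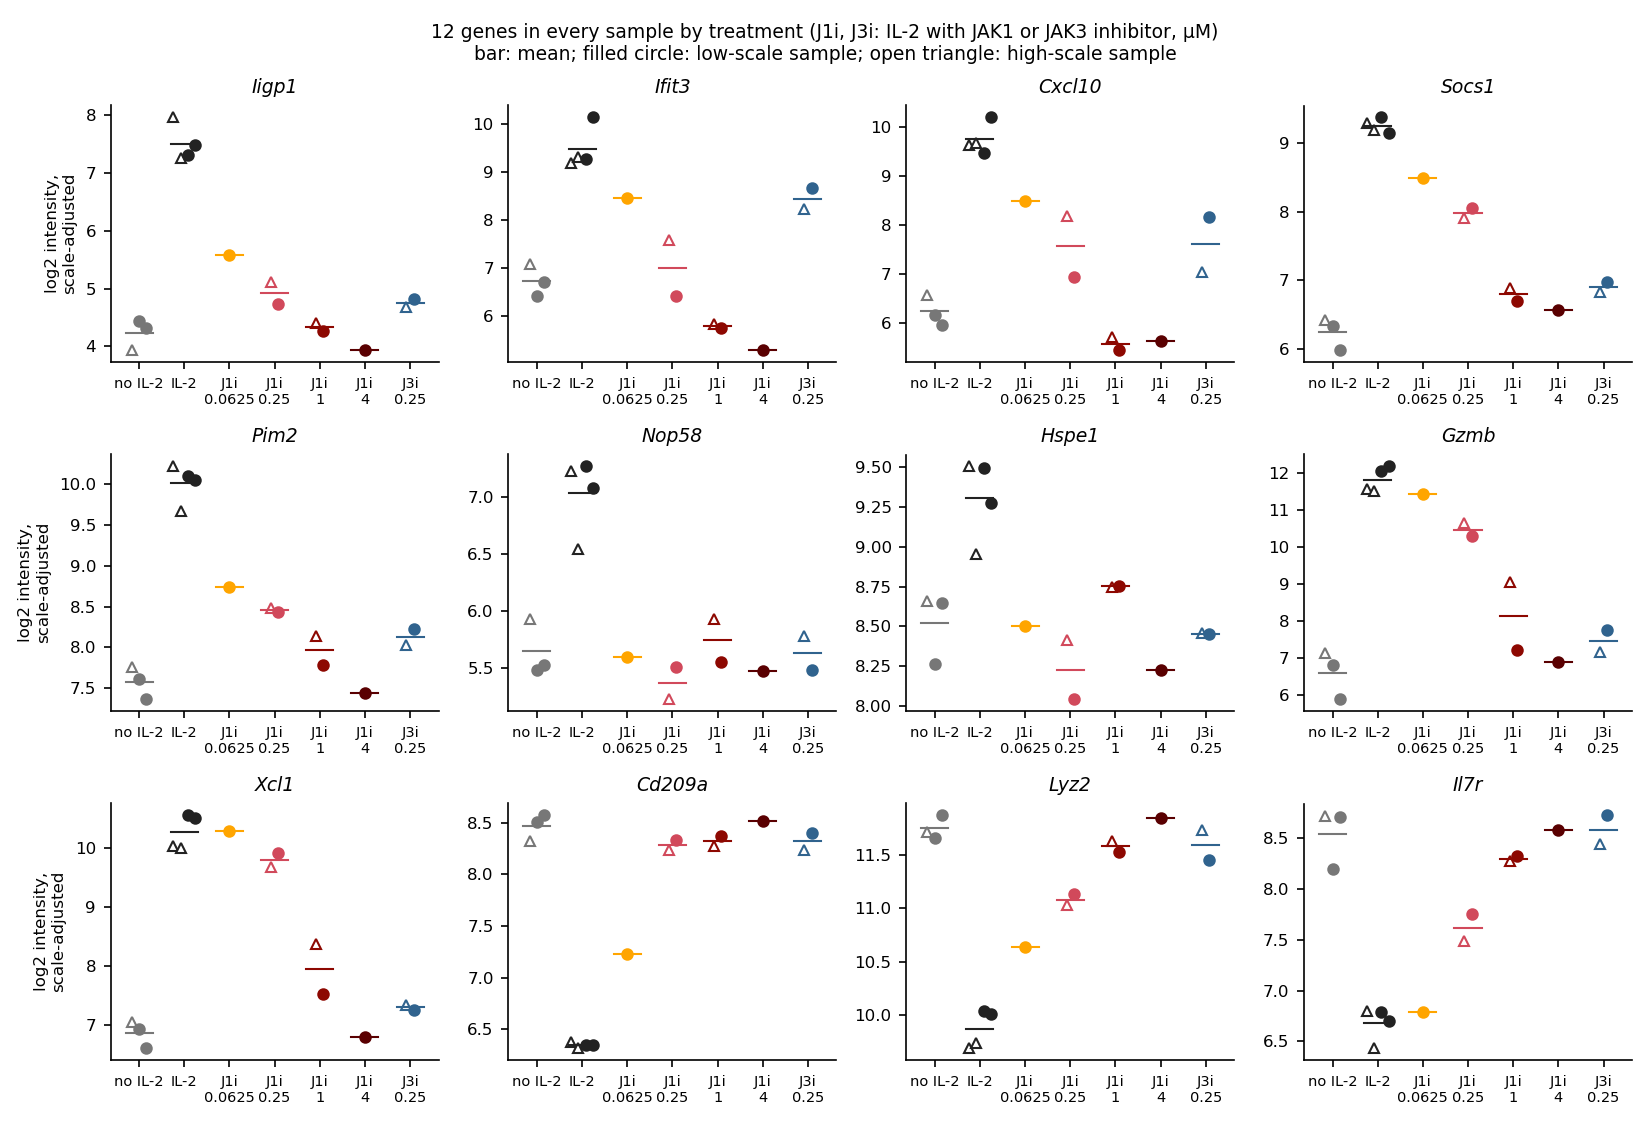
Scale-adjusted log2 intensity (y axis, a range of its own per panel) of 12 genes in each sample of 7 groups, with the mean as a bar; circles are low-scale and triangles high-scale samples. Iigp1, Pim2, Nop58 and Hspe1 at 0.0625 and 0.25 µM lie well below IL-2, Gzmb and Xcl1 at those doses lie closer to the IL-2 than to the untreated samples, and Cd209a and Lyz2 are higher at both doses than with IL-2.

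Cytotoxic and cytokine genes were mostly not called. Of 25 granule and death ligand genes, 3 fell (Gzmc, Serpinb9 and Tnfsf10) and 1 rose (Gzmk), against 1.93% lower and 0.699% higher of all genes. Lower at an unadjusted p under 0.05 were 12 of the 25, and higher 1, against 1679 and 1605 of all 19752 genes. In 12 of the 25, all low-dose samples were below all IL-2 samples (8.58% of all genes), and in 3 all were above (12.5% of all genes). Gzmb, the main killing protease of activated NK cells, measured 11.50, 11.54, 12.17 and 12.03 with IL-2, 11.43 at 0.0625 µM and 10.63 and 10.28 at 0.25 µM, against 5.88 to 7.13 in untreated cells. Its difference of -1.03 did not pass (SE 0.36, adjusted p = 0.142), though all 3 low-dose samples were below all IL-2 samples. Prf1, the pore-forming perforin, measured 9.55 to 10.12 with IL-2 and 9.41, 8.56 and 9.40 at the low doses (adjusted p = 0.102). Both passed when only the groups compared were fitted (adjusted p = 0.00213 and 0.00049). Gzmk, a granzyme of less activated lymphocytes, rose by 1.04 (SE 0.15, adjusted p = 0.000845), from 6.54 to 7.0 with IL-2 to 7.55, 8.01 and 7.98, levels also seen in untreated cells (7.54 to 7.93). Serpinb9, which protects the killer cell from its own granzyme B, fell by 1.07, and Tnfsf10, the death ligand TRAIL, by 0.73. Gzmc, a further granzyme, fell by 1.46, its low-dose values of 5.60, 5.07 and 5.02 lying below the 5.78 to 7.19 of IL-2.

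Of 19 cytokine and chemokine genes, 5 fell and none rose (26.3% lower, against 1.93% of all genes). At an unadjusted p under 0.05, 8 were lower and 1 higher. Ifng, the signature cytokine of NK cells, measured 9.81, 9.79, 10.27 and 9.90 with IL-2, then 9.26, 9.19 and 8.69, against 6.09 to 6.27 in untreated cells (change -0.90, SE 0.17, adjusted p = 0.00532). Its low-dose samples were below all IL-2 samples and remained far above untreated ones. Ccl4, a macrophage-attracting chemokine, fell by 0.94 (adjusted p = 0.0081), Csf1, the macrophage growth factor, by 0.82 and Lta, lymphotoxin alpha, by 0.78. Xcl1, which attracts cross-presenting dendritic cells, measured 10.00 to 10.56 with IL-2 and 10.29, 9.68 and 9.91 at the low doses, and was not called (adjusted p = 0.454). With the replicate block neither this list nor the granule list had a lower call (Ifng 0.243, Ccl4 0.145, Csf1 0.311, Lta 0.14, Gzmc 0.63, Serpinb9 0.215, Tnfsf10 0.748), and Gzmk stayed called. The 5 cytokine calls became 2 and 1 without 0.25 µM replicates 1 and 2 and 3 without IL-2 replicate 3, and the 3 lower granule calls 0 and 1 without those 2 samples, 2 without IL-2 replicate 2, 3 or 4 and 6 without IL-2 replicate 1. Without 0.25 µM replicate 1 the calls of Ccl4, Csf1, Gzmc, Serpinb9 and Tnfsf10 ended (0.104, 0.0672, 0.0708, 0.0701 and 0.175), and without 0.25 µM replicate 2 those of Ifng, Ccl4, Csf1, Gzmc and Tnfsf10 (0.0691, 0.0724, 0.0768, 0.0552 and 0.176). Tnfsf10 was also not called without IL-2 replicate 2, 3 or 4 (0.0894, 0.177 and 0.0757), Ccl4 without IL-2 replicate 4 (0.0542) and Csf1 without IL-2 replicate 3 (0.0556).

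NK cell receptors and identity genes gave few calls. Of 33 receptors and adaptors, Sh2d1b2 and Slamf7 fell and Cd7 rose, and the list's median was -0.05. That is 6.06% lower and 3.03% higher, against 1.93% and 0.699% of all genes. Sh2d1b2, an adaptor of SLAM family receptors, measured 6.38, 6.04, 6.85 and 5.92 with IL-2, then 5.35, 5.13 and 4.45 (change -1.32, SE 0.23, adjusted p = 0.00372). Cd7 measured 7.88, 7.95, 8.04 and 7.86 with IL-2, 8.81 at 0.0625 µM and 9.36 and 9.89 at 0.25 µM, against 9.68 to 9.95 untreated (change 1.42, SE 0.18, adjusted p = 0.000177). Both were called with the replicate block and without any 1 sample; Slamf7, at -0.51, lost its call with the block (adjusted p = 0.688) and without any of IL-2 replicates 2, 3 and 4 or 0.25 µM replicates 1 and 2 (from 0.0788 to 0.297). Ncr1, the activating receptor NKp46, measured 10.15 to 10.46 with IL-2 and 10.53, 10.38 and 10.51 at the low doses, 2 ranges that overlap. Of 19 transcription factors only Zbtb32, induced in activated NK cells, fell (7.5 to 7.88 with IL-2, then 7.0, 6.87 and 6.75, adjusted p = 0.00262; 0.192 with the block). That 1 gene is 5.26% of the list, against 1.93% lower of all genes.

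Genes of protein production were lower as a group in the pooled comparison. Of 35 chaperones and translation factors, 21 fell and none rose (60.0% lower, against 1.93% of all genes, median -0.58): 16 of 24 chaperones and 5 of 11 translation factors. In 31 of the 35, all low-dose samples were below all IL-2 samples (8.58% of all genes). Hspe1, the mitochondrial co-chaperone HSP10, measured 8.95, 9.51, 9.28 and 9.49 with IL-2, then 8.5, 8.41 and 8.04, and 8.66, 8.65 and 8.26 untreated (change -0.99, SE 0.16, adjusted p = 0.00162). Hspa5, the endoplasmic reticulum chaperone BiP, measured 9.97, 10.40, 10.54 and 10.49, then 9.64, 9.29 and 9.27, and 9.03 to 9.67 untreated (change -0.95, SE 0.16, adjusted p = 0.00228). In all 3 low-dose samples, 0.0625 µM included, both genes were within or below the untreated range. Eif5a, a translation elongation factor, measured 10.42, 11.26, 10.85 and 11.01 with IL-2, then 9.73, 8.36 and 9.38 (change -1.73, SE 0.30, adjusted p = 0.00301), and Tcp1, a subunit of the cytosolic chaperonin, fell by 0.82.

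Ribosome biogenesis genes gave 13 falls and no rise among 45 (28.9% lower, against 1.93% of all genes, median -0.54), with all 45 values below 0. Nop58, a core protein of the small nucleolar ribonucleoproteins, measured 6.54, 7.23, 7.09 and 7.28 with IL-2, then 5.59, 5.22 and 5.51, and 5.93, 5.52 and 5.48 untreated (change -1.59, SE 0.17, adjusted p = 3.94e-05). The 0.0625 µM sample lay as low as the untreated cells. Gnl3 (nucleostemin) fell by 0.96, Rrp9 by 0.95 and Gar1 by 0.84. Of 21 metabolic genes (polyamine, nucleotide and one-carbon synthesis), 5 fell and none rose, among them the purine genes Pnp (-1.21) and Ppat (-1.07), the folate enzyme Mthfd1 (-1.05) and the CTP synthetase Ctps (-0.80). These 5 are 23.8% of the list, against 1.93% lower of all genes. Pnp was lowest at 0.0625 µM (4.79, against 5.96 and 6.10 at 0.25 µM and 6.22 to 7.10 with IL-2).

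When only the 7 samples compared were fitted, which gave 2025 calls over all genes, the lower calls were 34 in the type I interferon list, 18 in the interferon-gamma, 23 in the IL-2/STAT5, 13 in the granule, 9 in the cytokine, 40 in the ribosome, 15 in the metabolic and 30 in the chaperone and translation list. For the single 0.0625 µM sample, the median difference from IL-2 of the same scale was -0.56 in the chaperone and translation list. It was -0.46 in the ribosome and -0.32 in the metabolic list. With 1 sample at that dose, the pooled calls of these and all other lists do not establish a change at 0.0625 µM. With the replicate block, no chaperone or translation gene, 1 ribosome biogenesis gene (Nop58) and no metabolic gene were called. The adjusted p-values were then 0.158 for Hspe1, 0.159 for Hspa5, 0.0678 for Eif5a, 0.352 for Tcp1, 0.203 for Gnl3, 0.435 for Rrp9, 0.13 for Gar1, 0.162 for Ppat, 0.493 for Ctps and for Mthfd1, and 1 for Pnp. The 21 chaperone and translation calls became 3 and 7 without 0.25 µM replicates 1 and 2, 7 or 8 when IL-2 replicate 2, 3 or 4 was dropped, and 9 with equal dose weights. The 13 ribosome calls became 1 and 3 without 0.25 µM replicates 1 and 2, 5 or 6 when IL-2 replicate 2, 3 or 4 was dropped, 26 when IL-2 replicate 1 was, 6 with equal dose weights, 24 with quantile normalization, and 20 with median centring or with dim genes left out. The 5 metabolic calls became 1 and 3 without 0.25 µM replicates 1 and 2, 2, 3 and 9 without IL-2 replicates 4, 3 and 1, and 10 with quantile normalization. Without 0.25 µM replicate 1, Eif5a, Tcp1, Gnl3, Rrp9, Gar1, Ppat, Ctps and Mthfd1 were not called (from 0.0518 to 0.0914); without 0.25 µM replicate 2, Gar1 and Mthfd1 (0.0562 and 0.076); without IL-2 replicate 4, Mthfd1 (0.0612); and Pnp was not called without IL-2 replicate 3 or 4 or the 0.0625 µM sample (0.09, 0.0881 and 0.101). Hspe1, Hspa5 and Nop58 were called with any 1 sample left out.

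Cell cycle genes gave 1 call: 1 of 33 replication and G1/S genes fell (Fen1, -0.50, adjusted p = 0.0496) and 0 of 24 mitosis genes passed the test. The 1 replication gene is 3.03% of its list, against 1.93% lower of all genes. At an unadjusted p under 0.05, 7 replication and G1/S genes were lower and 1 higher, and no mitosis gene differed. Of all 19752 genes, 1679 were lower and 1605 higher at that unadjusted p. Rfc3, a clamp loader subunit, measured 6.47 to 7.16 with IL-2 and 6.49, 5.89 and 6.04 at the low doses (adjusted p = 0.0512). Of 24 FOXO target and quiescence genes, which IL-2 signalling holds down through AKT, Cxcr4 (0.52) and Ypel3 (0.60) rose and the stress gene Ddit4 fell (-0.72). These are 8.33% higher and 4.17% lower, against 0.699% and 1.93% of all genes. At an unadjusted p under 0.05, 9 of the 24 were higher and 2 lower. Il7r, the IL-7 receptor, measured 6.43 to 6.80 with IL-2, 6.78 at 0.0625 µM and 7.49 and 7.75 at 0.25 µM, against 8.20 to 8.72 untreated. It did not pass in the pooled comparison (0.66, adjusted p = 0.0829) and did with the replicate block (adjusted p = 0.00818) and with the 0.25 µM samples alone (0.94, adjusted p = 0.00864). Among 20 NF-kappaB and immediate early genes, Jun, a subunit of AP-1, fell: 8.37, 8.88, 8.44 and 8.40 with IL-2, then 7.79, 7.29 and 7.25, next to 6.96 to 7.34 untreated (change -1.08, adjusted p = 0.00225). With samples centred on their medians, Cxcr4 and Ypel3 were not called (0.0861 and 0.0692). Jun and Ypel3 stayed with the block, and Cxcr4, Ddit4 and Fen1 did not (0.0678, 1 and 0.892). Cxcr4, Ypel3, Ddit4 and Fen1 were not called without IL-2 replicate 3 or 4 or without 0.25 µM replicate 1 or 2 (from 0.0672 to 0.265), Cxcr4 and Fen1 also not without IL-2 replicate 2 (0.0635 and 0.0734), and Ddit4 and Fen1 not without the 0.0625 µM sample (0.0572 and 0.102).

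Markers of myeloid cells were higher at the low doses. Of 16 macrophage and monocyte markers, 7 rose and none fell (43.8% higher, against 0.699% of all genes; median 0.48), and in 9 all low-dose samples lay above all IL-2 samples (12.5% of all genes). Members, among them Clec4a1, Clec4a3, Adgre4 and Vcan, were chosen with earlier results of these data known, so the count is not independent. Clec4a3, an inhibitory lectin of monocytes, measured 5.87, 5.52, 6.02 and 6.23 with IL-2, 7.11 at 0.0625 µM and 8.30 and 8.08 at 0.25 µM, against 8.74 to 9.13 untreated (change 1.92, SE 0.26, adjusted p = 0.000332). Lyz2, lysozyme of macrophages and granulocytes, measured 9.74, 9.69, 10.01 and 10.04, then 10.64, 11.03 and 11.13, against 11.66 to 11.87 untreated (change 1.06, SE 0.15, adjusted p = 0.000524). Cd209a, a lectin of monocyte-derived dendritic cells, measured 6.32, 6.38, 6.34 and 6.35 with IL-2, 7.23 at 0.0625 µM and 8.23 and 8.33 at 0.25 µM, which is close to 8.32 to 8.57 untreated (change 1.59, SE 0.19, adjusted p = 0.000165). In all 3 genes the 0.0625 µM sample lay between the IL-2 and the 0.25 µM samples. The complement genes C1qa and C1qb differed by 0.10 and -0.36 and were not called. The replicate block called 6 of the 16; 4 and 3 were called without 0.25 µM replicates 1 and 2, and none with the 0.0625 µM sample alone or within the low scale.

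The other marker lists gave 3 calls. None of 14 neutrophil markers (median 0.23, 5 higher at an unadjusted p under 0.05), 11 T cell markers (median 0.14, 1 higher) or 6 red blood cell markers was called. Of 11 B cell markers, all with values above 0, 1 rose (Vpreb3, 9.09% of the list), and 4 were higher at an unadjusted p under 0.05. Of 12 dendritic cell markers Cd209a rose and Bst2, also an interferon-stimulated gene, fell (8.33% each way, 3 higher and 2 lower unadjusted). Of all genes, 0.699% were called higher and 1.93% lower. Vpreb3 and Bst2 were not called with the replicate block (adjusted p = 0.388 and 1), without IL-2 replicate 2 or 3 (0.107 and 0.106 for Vpreb3, 0.0669 and 0.208 for Bst2) or without either 0.25 µM sample (0.163 and 0.181, 0.113 and 0.159), nor was Bst2 without IL-2 replicate 4 or the 0.0625 µM sample (0.186 and 0.137). None of the 10 NK markers was called (median -0.22, 3 lower at an unadjusted p under 0.05). Of all 19752 genes, 1605 were higher and 1679 lower at that unadjusted p. The lower calls of the interferon, IL-2/STAT5 and protein production lists thus stand beside a summed myeloid marker level of 3470 to 4980 against 2090 to 2840 with IL-2 and an NK marker level of 7740 to 8850 against 8830 to 11300; the part of these in the results was not tested.

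Between the 2 low doses, only 1 gene was called: Mir465, a microRNA gene, was lower at 0.25 than at 0.0625 µM (-1.75, SE 0.20, adjusted p = 0.000708; 0.00506% of all genes), and 875 genes had an unadjusted p under 0.05 (656 lower, 219 higher). It measured 3.84 in the single 0.0625 µM sample and 1.83 to 2.28 in all IL-2, 0.25 µM and untreated samples, so the call rests on 1 sample, and it ended without 0.25 µM replicate 2 (adjusted p = 0.0503). This comparison has 1 sample on a side, assumed to vary like the other groups. No list member was called, and the lists differed in their medians: -0.85 for the 39 type I interferon genes (38 lower at 0.25 µM, 25 of them at an unadjusted p under 0.05), -0.41 for interferon-gamma genes, -0.13 for IL-2/STAT5 genes, -0.16 for chaperones and translation factors, -0.28 for ribosome biogenesis genes, 0.42 for macrophage markers, 0.49 for neutrophil markers (all 14 values above 0) and -0.04 over all genes. Ifit3 differed by -1.53 (95% interval -2.59 to -0.48), Slfn5 by -1.45 (-2.48 to -0.41) and Cd209a by 1.11 (0.68 to 1.53), with adjusted p-values of 1, 1 and 0.181. For Hspe1 (-0.29, -0.82 to 0.25), Nop58 (-0.24, -0.83 to 0.36) and Pim2 (-0.30, -0.93 to 0.33) the interval covers 0 and does not show that the doses act alike.

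**Figure D3:**
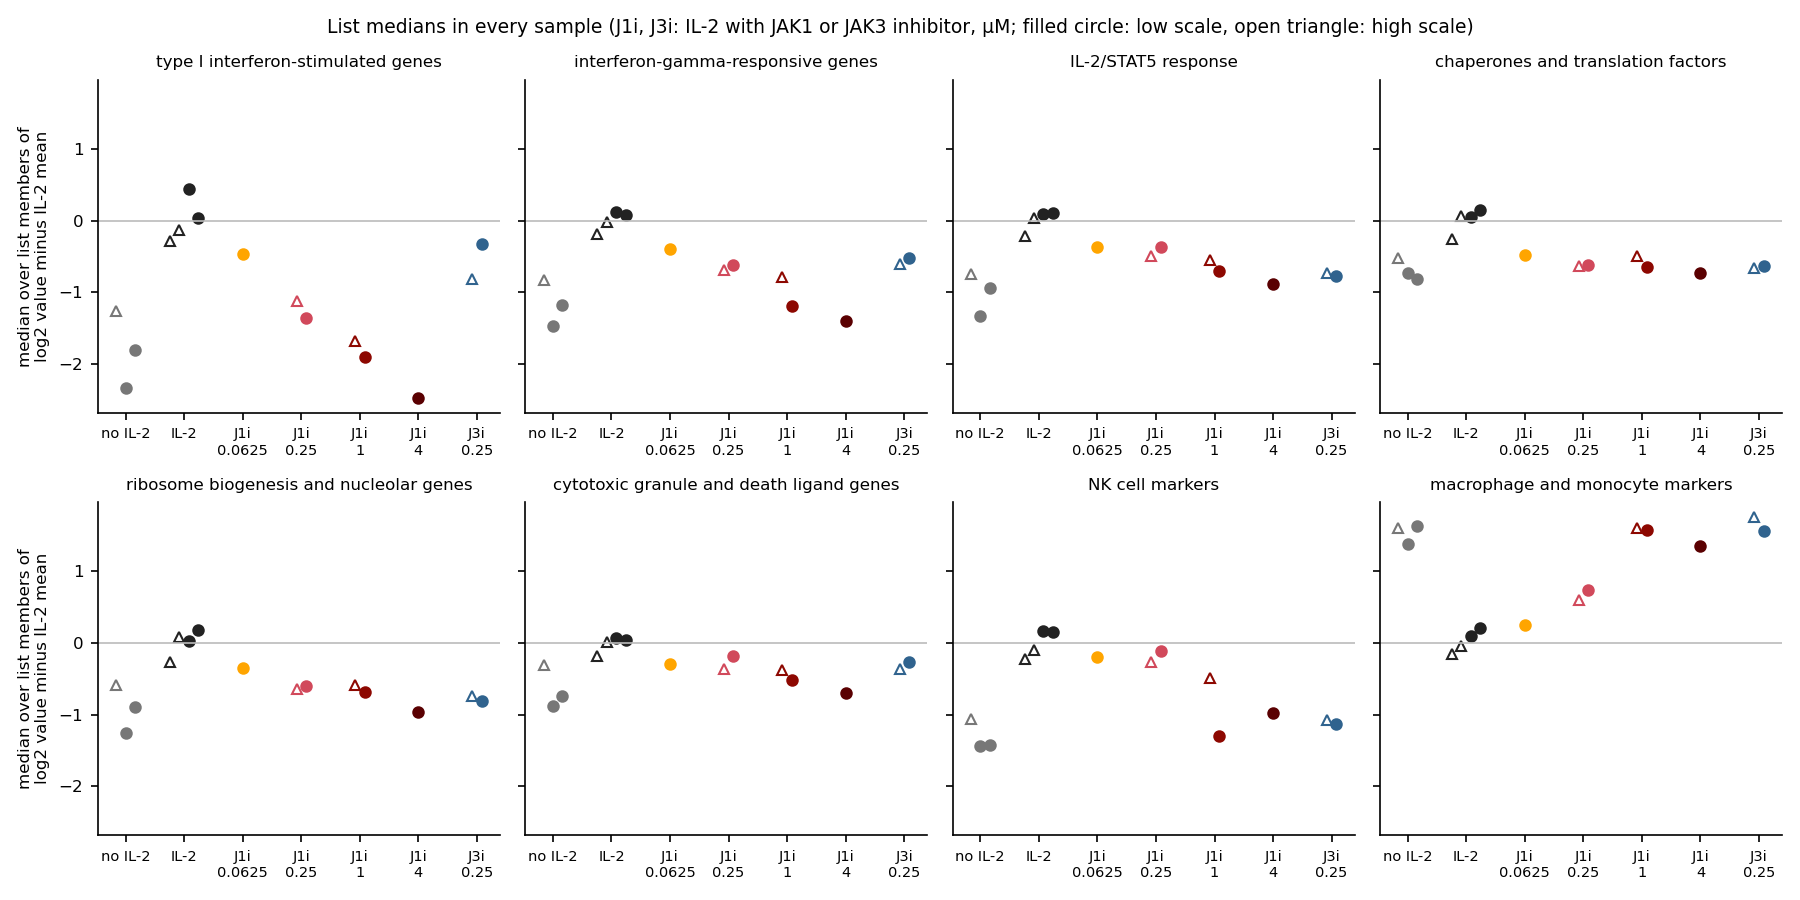
Median over list members of the scale-adjusted log2 value minus the IL-2 mean (y axis, shared), in each sample of 7 groups, for 8 lists; circles are low-scale and triangles high-scale samples. The type I interferon median goes from -0.46 at 0.0625 µM to -1.12 and -1.36 at 0.25 µM and -2.46 at 4 µM, while the chaperone and translation median is -0.48 at 0.0625 µM and between -0.73 and -0.49 in every JAK1 inhibitor sample above it.

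Set against untreated cells, the low doses differed in 593 genes (3%): 392 were higher (1.98%) and 201 lower (1.02%). The effector genes led. Gzmb was higher by 4.18 (SE 0.38, adjusted p = 8.17e-07), Cxcl9 by 3.36 (SE 0.28), Xcl1 by 3.10 (SE 0.22), Ifng by 2.88 (SE 0.18, adjusted p = 6.51e-09) and Ncr1 by 2.41 (SE 0.19). None of their values overlapped between the groups: Xcl1, for example, measured 6.6 to 7.05 untreated and 9.68 to 10.29 at the low doses. Of the lists, 8 of 10 NK markers, 15 of 33 NK receptors, 10 of 25 granule genes, 16 of 37 IL-2/STAT5 genes and 12 of 25 interferon-gamma genes were higher and none of these was lower. NK markers summed to 7740 to 8850 at the low doses and 3050 to 3780 in untreated cells. Macrophage and monocyte markers summed to 3470 to 4980 and 7970 to 9140. The part of these marker levels in the comparison with untreated cells was not tested. Socs1 was higher by 1.91 (SE 0.16), Bcl2 by 2.06 (SE 0.18), Prf1 by 2.09 (SE 0.25) and Cish by 1.20 (SE 0.16).

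Growth, type I interferon and macrophage lists differed from untreated cells as follows. None of 35 chaperones and translation factors was called (median 0.15, 4 higher at an unadjusted p under 0.05). Called higher were 5 of 45 ribosome biogenesis genes (11.1%) and 7 of 39 type I interferon genes (17.9%, median 0.72, 28 at an unadjusted p under 0.05), against 1.98% of all genes. Over all 19752 genes, 1912 were higher at that unadjusted p. Hspe1 differed by -0.21 (SE 0.17, adjusted p = 0.646) and Nop58 by -0.20 (SE 0.18, adjusted p = 0.687), while Oasl2 was higher by 1.39 and Cxcl10 by 1.63. Macrophage markers were lower in 10 of 16 (62.5%, against 1.02% of all genes), led by Adgre4 (-1.94) and Vcan, a proteoglycan of monocytes (-1.83). The prostaglandin-degrading enzyme Hpgd (-1.86), the lectin Clec4d (-1.73) and the scavenger receptor Cd36 (-1.72) were also among the 5 largest falls. Without the 0.0625 µM sample, 259 genes were called, with 2 of the type I list, no ribosome gene, 5 macrophage markers and 5 NK markers, and Oasl2 was not called (adjusted p = 0.123); without untreated replicate 2, 23 of the type I list and 13 ribosome genes were. Type I calls were 3, 4 and 4 without untreated replicate 3, untreated replicate 4 and 0.25 µM replicate 1, ribosome calls 0 without untreated replicate 3, NK markers 5 without 0.25 µM replicate 2, and Oasl2 ended without untreated replicate 3 (0.0625). The other genes named as higher or lower here stayed called with any 1 sample left out.

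**Figure D4:**
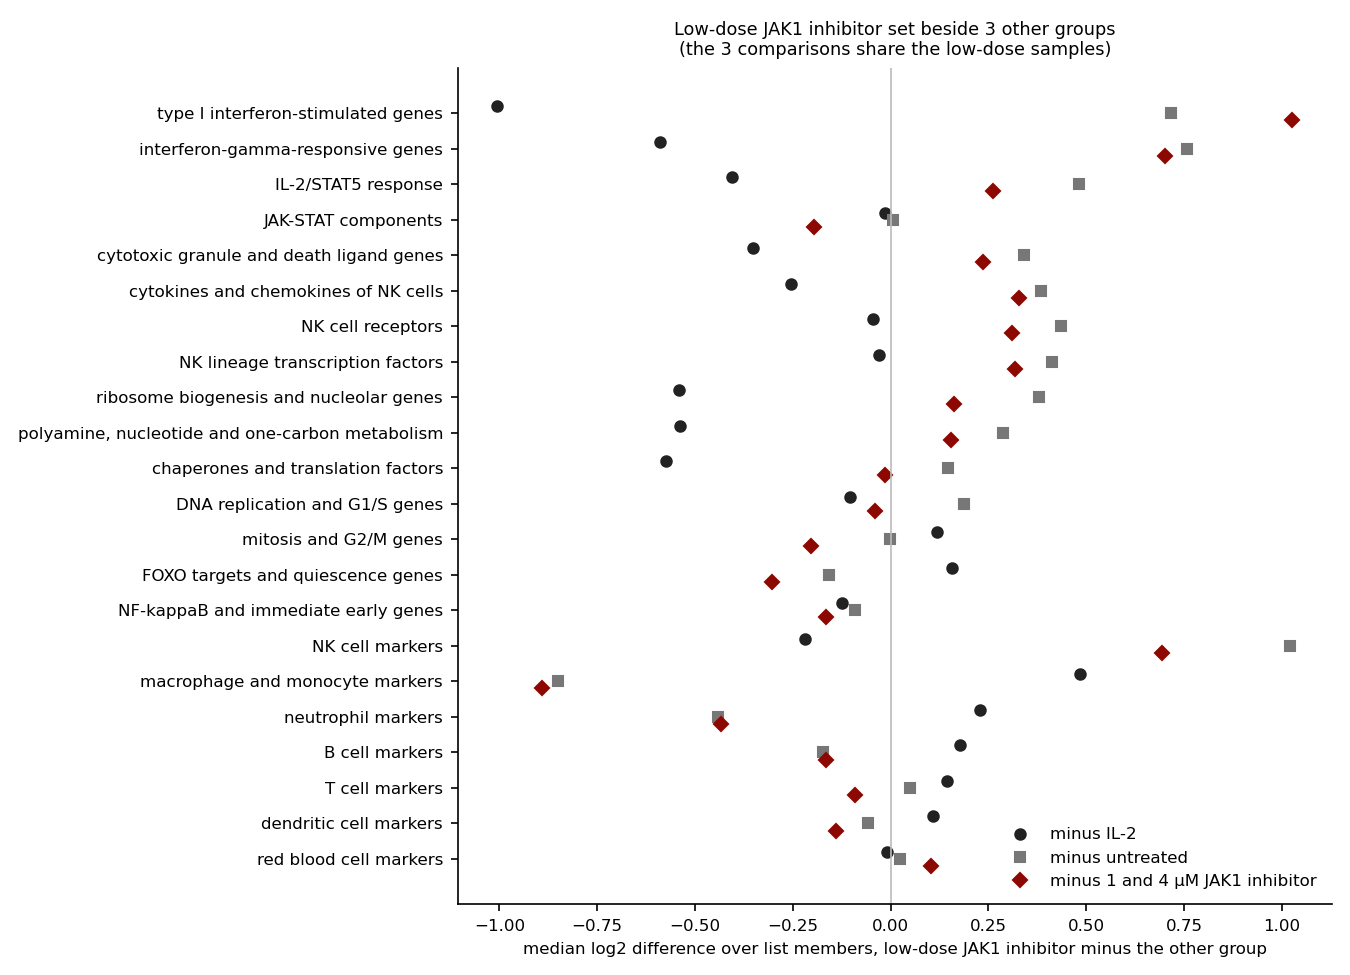
Median log2 difference over the members of each list (x axis) between the low-dose samples and IL-2 (circles), untreated cells (squares) and 1 and 4 µM of the same inhibitor (diamonds); the 3 comparisons share the low-dose samples. Interferon lists lie between IL-2 and the other 2 groups (-1.0, 0.72 and 1.03 for the type I list), NK markers lie near IL-2 (-0.22, 1.02 and 0.69), and chaperones and translation factors lie near the other 2 (-0.58, 0.15 and -0.01).

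Against 1 and 4 µM of the same inhibitor, 483 genes differed (2.45%): 199 were higher at the low doses (1.01%) and 284 lower (1.44%). The balance turned in the low scale (106 higher, 36 lower) and with the replicate block (174 and 167). It also turned without the 0.0625 µM sample (64 and 43), without 0.25 µM replicate 1 (113 and 104) and without 1 µM replicate 1 (175 and 99) or 2 (108 and 76). Cxcl9 was higher by 3.34 (SE 0.32), Gzmb by 3.06 (SE 0.41), Ifng by 2.43 (SE 0.22), Xcl1 by 2.40 (SE 0.27) and Oasl2 by 2.39 (SE 0.31). Ifng measured 7.21 and 6.64 at 1 µM and 5.99 at 4 µM, against 9.26, 9.19 and 8.69 at the low doses, with no overlap. Type I interferon genes were higher in 22 of 39 (median 1.03), and Ifit1 at 1 and 4 µM (4.73, 4.55 and 4.71) lay below even untreated cells (5.8 to 6.30). Interferon-gamma genes were higher in 11 of 25, granule genes in 7 of 25 and NK markers in 5 of 10, whereas 0 of 35 chaperones and translation factors differed (median -0.01; 4 lower and 1 higher at an unadjusted p under 0.05). Macrophage markers were lower in 10 of 16. Vcan measured 9.80, 9.98 and 9.73 at the higher doses, near the 9.63 to 10.47 of untreated cells, and 7.90, 7.96 and 8.60 at the low doses. Summed over the list, these markers reached 7750 to 8430 at the higher doses against 3470 to 4980 at the low doses, and their part in the comparison was not tested. The type I count was 6, 9 and 10 without the 0.0625 µM sample, 1 µM replicate 2 and the 4 µM sample; the granule count 3 without any of these and 4 without either 0.25 µM sample; the NK marker count 2 or 3 without any of these 5; the interferon-gamma count 7 without the 0.0625 or the 4 µM sample; and the macrophage count 5 without the 0.0625 µM sample. The genes named as higher stayed called with any 1 sample left out, and so did Vcan.

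At the matched dose of 0.25 µM, the JAK1 and the JAK3 inhibitor samples (2 each) differed in 89 genes (0.451%), 47 higher (0.238%) and 42 lower (0.213%) with the JAK1 inhibitor. The split was 306 higher and 808 lower with only the compared groups fitted, 119 and 229 with the replicate block, 23 and 10 with median centring, and 5 and 0 without JAK3 inhibitor replicate 1. The effector genes were higher with the JAK1 inhibitor. Ifng measured 9.19 and 8.69 with it and 6.06 and 6.30 with the JAK3 inhibitor, whose values lay at those of untreated cells (difference 2.76, SE 0.22, adjusted p = 1.56e-06). Xcl1 measured 9.68 and 9.91 against 7.34 and 7.26 (2.50, SE 0.26, adjusted p = 6.97e-05), and Clnk, an adaptor of lymphocyte signalling, 7.78 and 7.36 against 5.12 and 5.65 (2.18, SE 0.22). Gzmb differed by 2.99 (SE 0.45, adjusted p = 0.00252) and Klrb1a, an NK lectin receptor, by 2.65 (SE 0.34, adjusted p = 0.00049). Of the lists, 7 of 37 IL-2/STAT5 genes, 6 of 33 NK receptors, 5 of 25 granule genes, 4 of 19 cytokines and 3 of 10 NK markers were higher and none lower, and 6 of 16 macrophage markers were lower. The summed macrophage marker level with the JAK3 inhibitor was 7590 to 8510, a range that overlaps that of untreated cells, and its part in the comparison was not tested.

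For type I interferon genes the difference had the other sign: all 39 values were below 0 (median -0.69), of which only Slfn5 passed the test, while 24 had an unadjusted p under 0.05, against 847 lower of all 19752 genes. Slfn5 measured 6.04 and 5.56 with the JAK1 inhibitor and 7.38 and 8.10 with the JAK3 inhibitor (-1.94, SE 0.40, adjusted p = 0.0315), the latter near IL-2 alone at 7.93 to 8.96. Ifit3 differed by -1.46 (95% interval -2.30 to -0.61, adjusted p = 0.161). For 5 other genes the 95% interval of the difference covers 0: Iigp1 0.18 (-0.26 to 0.61), Cxcl10 -0.03 (-0.76 to 0.70), Hspe1 -0.23 (-0.66 to 0.20), Nop58 -0.26 (-0.74 to 0.21) and Cd209a -0.04 (-0.37 to 0.30). These intervals bound the difference and do not show that the inhibitors act alike. Leaving out 1 of the 4 samples left 5 calls (without JAK3 inhibitor replicate 1) and 19, 20 and 23 without JAK3 inhibitor replicate 2 and JAK1 inhibitor replicates 1 and 2. Ifng, Xcl1 and Clnk were called in all 4 of these, Gzmb not without JAK3 inhibitor replicate 1 or JAK1 inhibitor replicate 1 (adjusted p = 0.152 and 0.0682), Klrb1a not without the former (0.0601), and Slfn5 in none of them (0.0886 to 0.741). The list counts were lower in each of these too: 0 to 3 IL-2/STAT5 genes, 1 or 2 NK receptors, 0 to 2 granule genes, 2 cytokines, 1 or 2 NK markers and 0 or 1 macrophage marker. With the samples centred on their medians, 33 genes were called, without Slfn5 (adjusted p = 0.0827).

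**Figure D5:**
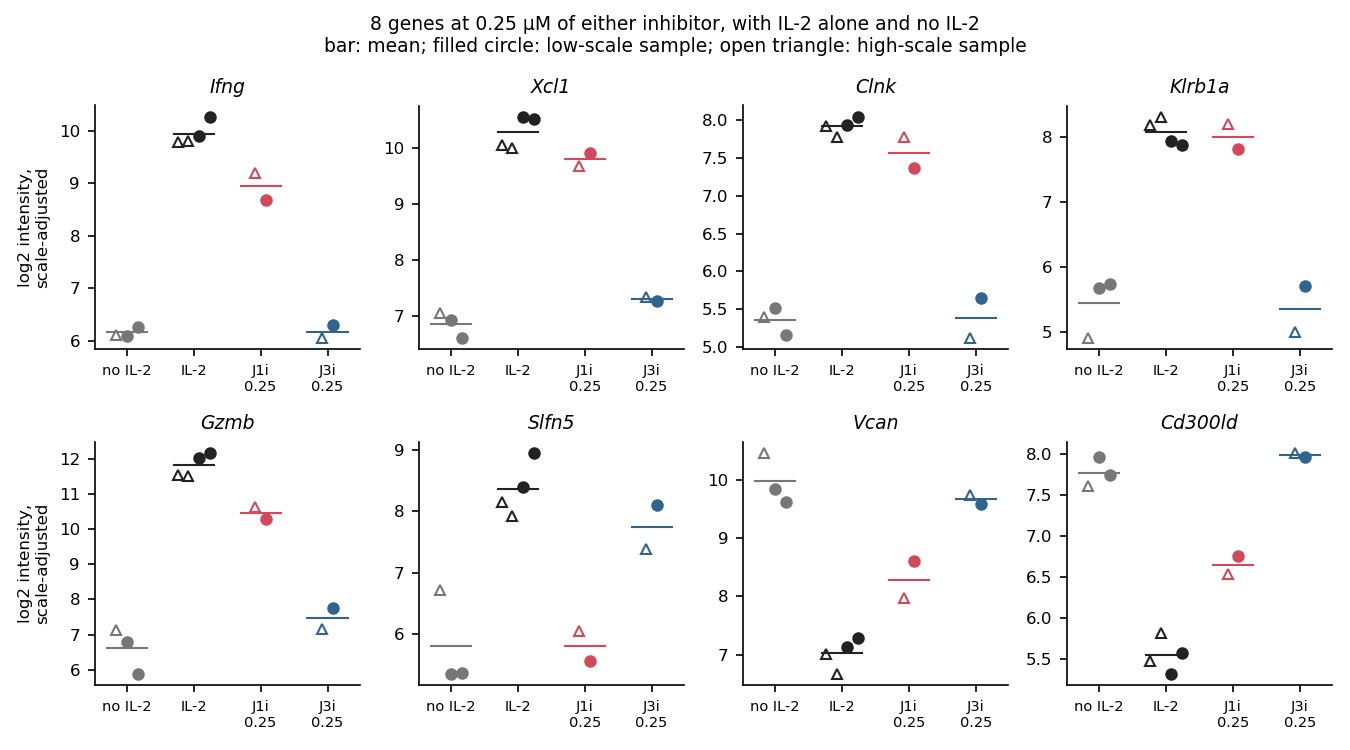
Scale-adjusted log2 intensity (y axis, a range of its own per panel) of 8 genes in untreated, IL-2, JAK1 inhibitor 0.25 µM and JAK3 inhibitor 0.25 µM samples, with the mean as a bar; circles are low-scale and triangles high-scale samples. With the JAK1 inhibitor Ifng and Gzmb lie below IL-2 (Ifng by 0.90 over both low doses) and, like Xcl1, Clnk and Klrb1a, above every JAK3 inhibitor and untreated sample, Slfn5 is lower with the JAK1 than with the JAK3 inhibitor, and Vcan and Cd300ld lie between IL-2 and untreated cells with the JAK1 inhibitor and near untreated cells with the JAK3 inhibitor.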

How the data were processed

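RNA of 19 samples was hybridised to Affymetrix Mouse Gene 1.0 ST arrays. The values are linear probe set intensities as deposited; the submitters' processing notes name Affymetrix Power Tools and RMA, with versions and genome build not given in the sources used here. Intensities were put on the log2 scale. Of 24922 probe sets, 21425 had 1 gene symbol, and the brightest probe set of each gene was kept, giving 19752 genes. Of the probe sets, 20.0% shared a value in at least 3 of the 7 high-scale samples and 0% in the low-scale samples. All 19 samples were fitted in limma 3.58.1 (R 4.3.3; lmFit, eBayes with an intensity trend) with 1 mean per group and a term for scale (median 1.64), with Benjamini-Hochberg adjustment over all genes; the number of arrays limits the precision. The low-dose mean weights its 3 samples equally.

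Genes were named as the 8 largest falls and rises against IL-2, up to 5 each way in the other comparisons, up to 4 per list by smallest p, and fixed pathway genes; predicted genes and small RNAs could be passed over. Members and lists were chosen with earlier results of these data known. Of 454 response list entries 420 matched a gene, and of 87 marker entries 80; Jak3, Il2rg and Isg15 were not analysed here, and 18 genes stand on more than 1 list. Replicate numbers come from the titles. In the comparison with IL-2, the 3 same-numbered pairs deviated together (correlations 0.146 to 0.313, against -0.331 to 0.188 in 9 other pairs), so values with the number as a block stand beside that comparison. The pairs of 0.0625 µM replicate 1 and of 0.25 µM replicate 2 with IL-2 cross the value scales, and deviations within a group balance out by the fit. The labels do not say whether the number marks a shared experiment. The fit was tested on simulated data.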

Additional observations from a re-analysis of the deposited data

Results flagged for a closer look

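In 9 of the 116 named genes 1 of the 4 IL-2 samples was flagged by Dixon's test (gap over range above the 95% critical value), which chance gives in about 1 in 20 groups. The ratio is relative to the range of the 4 samples, so a flagged gap can be small. IL-2 replicate 3 was highest for Ifit3 (10.15, next 9.32), Usp18 (10.15, next 9.41) and Ifit1 (8.78, next 7.96), 3 interferon-stimulated genes; their falls at the low doses were called with that sample left out. Replicate 2 was highest for Jun (8.88, next 8.44) and for the SLAM receptor Slamf6 (8.19, next 8.12). Replicate 1 was lowest for Myc (9.52, next 9.75), Socs2 (6.97, next 7.35), Jund (7.54, next 8.08) and Cd28 (7.80, next 8.06).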

How the results depend on the processing

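All 520 genes that differed from IL-2 kept their direction in every alternative that tested them. The alternatives use the same samples or a part of them, so the kept direction is not independent support. The count was 2025 with only the compared groups fitted, 1301 with quantile normalization, 86 with the replicate block, 24 in the low scale, 4 for 0.0625 µM alone, 273 with equal dose weights and 0 in the high scale (787 at an unadjusted p under 0.05), and 92 to 961 with 1 sample left out. Beyond the calls given beside the results, the block ended those of Adgre4 and Hpgd against IL-2 (adjusted p = 0.0667 and 0.129) and changed no other named call there. Between doses, the single call became 0 in the low scale (778 unadjusted) and with dim genes left out (282 unadjusted), and leaving out a sample gave 0 to 1; fitting only those groups, or leaving out the 0.0625 µM sample, could not be fitted. Against untreated cells, 593 became 279 with only the compared groups, 1528 with quantile normalization (781 higher, 747 lower), 111 with the replicate block, 149 in the low scale and 259 to 886 with 1 sample left out. Against the higher doses, 483 became 782 with only the compared groups, 1077 with quantile normalization, 142 in the low scale and 107 to 419 with 1 sample left out. Between inhibitors, 89 became 1114 with only the compared groups, 299 with quantile normalization, 33 with median centring, 348 with the replicate block, 0 in the low scale and 5 to 23 with 1 sample left out. There, deviations from the fit correlated at -0.288 and -0.191 in same-numbered pairs and at 0.288 and 0.191 in the others. The 2 JAK3 inhibitor samples deviate in opposite directions by the fit itself, so these values cannot tell which samples belong together. A crossed pairing, added after the data were seen, gave 149 calls. The cause of these shifts was not tested. The small number of arrays, 1 of them at 0.0625 µM, limits all comparisons.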

Other observations

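The genes ranked after the 8 largest falls and rises against IL-2 were chosen by rank after their values were seen. Genes already named above, predicted genes and small RNAs were passed over. Nop58, Pim2, Gzmc and Ifit1, whose falls lie in the same range, were therefore left out. Of the 12 falls so taken, 6 stand on the type I interferon list already described (Oas2, Oas3, Irf7, Rtp4, Isg20 and Oasl1). Phf11a, Ptgs2, Cd69, Gadd45g, Cdh17 and Ifi213 do not. The number on that list depends on which genes were passed over. Cd69, the early activation marker that retains lymphocytes in tissue, measured 8.84, 9.01, 9.21 and 8.95 with IL-2, 7.86 at 0.0625 µM and 7.51 and 6.89 at 0.25 µM (change -1.58, SE 0.20, limma adjusted p = 0.00019, 0.0262 with the replicate block). Ptgs2, the inducible prostaglandin synthase, fell by 1.71 (SE 0.21, adjusted p = 0.000177, 0.0651 with the block), and Gadd45g, a stress gene, fell by 1.49 (0.0795 with the block). Among the rises, Pparg, a nuclear receptor of fat metabolism that myeloid cells also use, measured 6.32, 6.20, 6.10 and 6.43 with IL-2, then 7.09, 7.48 and 7.60 (change 1.13, SE 0.14, adjusted p = 0.000165, 0.00239 with the block). Clec4e, a lectin receptor for mycobacterial lipid, rose by 0.94. These rises stand beside the higher summed level of macrophage and monocyte markers at the low doses, whose part in them was not tested.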
